A study of Mus musculus with 24 samples.

Results

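The 95 genes described here are solute carriers, the membrane proteins that move ions, metals, nucleotides, vitamins and other small molecules, outside the carrier families usually studied at the blood-brain barrier. They were taken by symbol: Slc and a number, without the 11 families Slc1, Slc2, Slc3, Slc6, Slc7, Slc16, Slc19, Slc22, Slc38, Slc39 and Slc40. Of 237 such genes with a probe set of their own on the array, the 95 members were those with a mean log2 value of at least 8 in adult hindbrain endothelial cells, and they belong to 30 families. The array measured 22180 genes in all, 6844 of which, apart from the members, passed the same threshold. The hindbrain level therefore chose the members and is given as a description.

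Endothelial cells were sorted from 2 mouse models of medulloblastoma, a cerebellar and brainstem tumour, and from normal hindbrain, with 8 biological replicates in each group and 1 array per replicate. The mice with Wnt tumours carried Blbp-Cre, in which the Blbp promoter drives Cre in neural progenitors. Cre acted on Ctnnb1 +/Exon3 flox, which makes a stabilised beta-catenin, on Trp53 flox/flox, which removes the tumour suppressor, and on a Pik3ca +/flox allele. The Shh tumours carried Ptch+/- and Ink4c-/-, which release Hedgehog signalling and remove a cell cycle inhibitor. The hindbrain cells came from wild-type adult mice, and the strain background was mixed throughout. The labels give no age for the tumour mice, so tumour and age cannot be told apart in the comparisons with hindbrain. Cells were released with papain and captured on magnetic beads with antibodies to Cd105 and Cd144, surface proteins of endothelium.

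Endothelial cells of brain vessels are joined by tight junctions, so that solutes cross through carriers in their membranes. Many carriers also work inside every cell: most of the Slc25 family lie in the inner mitochondrial membrane, many of Slc35 bring nucleotide sugars into the Golgi and the endoplasmic reticulum, and others load or empty lysosomes. Which carriers sit in the luminal or abluminal face of the vessel cannot be read from RNA.

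Values are log2 probe set intensities as deposited. On this scale the 92 probe sets for external control sequences had a median of 3.96, and 95% of them lay below 5.24. They serve only as a rough mark of low values. Levels are compared between groups for 1 gene and not between genes. A call is an adjusted p under 0.05 in limma, fitted to all genes. Group means are given ± SD over 8 arrays and log2 fold changes ± SE.

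RNA of other cell types was measured too, and the levels of their markers differed between groups. The mean of 16 endothelial markers was 10.33 ± 0.49 in Wnt arrays, 11.37 ± 0.23 in Shh arrays and 11.54 ± 0.11 in hindbrain arrays. All 16 were called lower in Wnt than in hindbrain arrays and 15 of 16 lower in Wnt than in Shh arrays, against 3 of 16 in Shh relative to hindbrain. The mean of 11 microglia and macrophage markers was 8.69 ± 0.60, 9.07 ± 0.82 and 10.56 ± 0.34 in Wnt, Shh and hindbrain arrays. Fibroblast markers averaged 10.22 ± 0.50, 9.58 ± 0.46 and 8.40 ± 0.25 in the same order. Both sets split between the tumours. In Wnt minus Shh 2 of 11 microglia markers were called higher and 2 lower, and 3 of 7 fibroblast markers higher and 2 lower. Relative to hindbrain, 10 of 11 microglia markers were lower in Wnt and 9 of 11 in Shh arrays. Of the fibroblast markers 6 of 7 were higher in each tumour, and 1 was lower in Shh arrays. Markers of granule neuron precursors, from which Shh tumours grow, averaged 6.39 ± 0.34 in Wnt, 8.62 ± 0.52 in Shh and 6.78 ± 0.12 in hindbrain arrays, and 7 of 7 were called lower in Wnt than in Shh and 6 of 7 higher in Shh than in hindbrain. Pericyte markers averaged 9.19 ± 0.65, 10.28 ± 0.18 and 10.38 ± 0.37 in Wnt, Shh and hindbrain arrays, with 7 of 11 called lower in Wnt than in each of the others. Smooth muscle markers averaged 8.76 ± 0.27, 8.15 ± 0.23 and 9.55 ± 0.28 in Wnt, Shh and hindbrain arrays. Of these 6, 5 were called lower in Shh than in hindbrain, 3 lower in Wnt than in hindbrain, and 4 higher and 1 lower in Wnt than in Shh. Neuron markers averaged 6.22 ± 0.20, 7.21 ± 0.44 and 6.99 ± 0.45, and oligodendrocyte markers 6.50 ± 0.23, 6.83 ± 0.21 and 7.48 ± 0.22, in the same order. Only the endothelial and microglia marker means were used as covariates. The endothelial mean of every Wnt array (highest 10.94) lay below every Shh (lowest 11.09) and hindbrain array (lowest 11.31). The microglia mean of every Wnt array (highest 9.38) lay below every hindbrain array (lowest 10.11), and in Shh arrays it reached 10.22. In such comparisons the covariate cannot be told apart from group. Calls held, lost or turned under it are a description, and the part of these cells was not tested. In such bulk arrays fewer cells of a type and less RNA per cell cannot be told apart.

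Between the tumours, 30 members were higher and 28 lower in Wnt than in Shh arrays and 37 did not pass, with a median log2 fold change of 0.04. That is 61.1% of the members, beside 35.8% of all genes and 49.7% of the other genes at or over the hindbrain threshold. By direction, 31.6% of the members were called higher, beside 18.0% of all genes and 20.5% of the other genes over the threshold, and 29.5% were called lower, beside 17.8% and 29.1%. The 8 arrays of Wnt and the 8 of Shh did not overlap for 15 members, or 15.8%, beside 10.1% of all genes and 14.7% of the others over the threshold. The members thus moved in both directions. With the endothelial marker mean of each array as a covariate, 11 members were called higher and 11 lower, beside 8.31% and 7.84% of all genes. Of the 58 calls 21 held, or 36.2%, beside 35.7% of those of all genes.

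Against the hindbrain, 29 members were higher and 34 lower in Wnt arrays, which makes 66.3%, beside 45.3% of all genes and 67.3% of the other genes over the threshold. The 30.5% called higher stand beside 23.2% of all genes and 29.2% of the others over the threshold, and the 35.8% called lower beside 22.0% and 38.0%. In Shh arrays 18 were higher and 35 lower than in hindbrain, which makes 55.8%, beside 37.8% and 50.9%. Here 18.9% were called higher, beside 18.9% of all genes and 23.1% of the others, and 36.8% lower, beside 18.9% and 27.7%. The medians were -0.10 for Wnt minus hindbrain and -0.08 for Shh minus hindbrain. The groups did not overlap for 35 members in the first comparison, or 36.8%, beside 20.0% of all genes and 34.6% of the others over the threshold, and for 20 members in the second, or 21.1%, beside 12.7% and 21.0%. Both comparisons use the same 8 hindbrain arrays, and a threshold on those arrays favours falls, so nothing is read from these counts. With every array shifted to the same median, the calls were 25 higher and 43 lower for Wnt, beside 17.9% and 33.5% of all genes, and 12 higher and 41 lower for Shh, beside 14.2% and 28.3%. With the endothelial marker mean as covariate they were 14 and 19 for Wnt, beside 9.31% and 8.24% of all genes, and with the microglia marker mean 11 and 19 for Shh, beside 14.1% and 14.3%. Under the shift the median of all genes moved by -0.11 in Wnt minus hindbrain and by -0.09 in Shh minus hindbrain.

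With the endothelial mean as covariate, the higher calls that held in Wnt minus Shh were those of Slc4a3, Slc12a2, Slc12a4, Slc17a5, Slc20a2, Slc25a12, Slc25a17, Slc25a35, Slc25a37, Slc25a42 and Slc44a2, and the lower ones those of Slc9a3r1, Slc15a3, Slc25a33, Slc26a2, Slc29a4, Slc35e1, Slc36a1, Slc37a2, Slc43a2 and Slc46a3. In Wnt minus hindbrain 27 of 63 calls held, or 42.9%, beside 34.9% of those of all genes. They were higher for Slc12a2, Slc17a5, Slc25a3, Slc25a4, Slc25a12, Slc25a17, Slc25a20, Slc25a39, Slc29a1, Slc35b1 and Slc41a1, and lower for Slc9a2, Slc9a3r1, Slc11a1, Slc15a3, Slc15a4, Slc25a1, Slc25a33, Slc25a45, Slc26a2, Slc26a10, Slc29a3, Slc29a4, Slc36a1, Slc37a2, Slc46a3 and Slc49a4. In Shh minus hindbrain 50 of 53 calls held with the endothelial mean.

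With the microglia marker mean as covariate 56 of 58 calls held in Wnt minus Shh and 45 of 63 in Wnt minus hindbrain, but only 27 of 53 in Shh minus hindbrain, or 50.9%, beside 64.2% of those of all genes. Those 27 were higher for Slc25a5, Slc25a39, Slc25a46, Slc27a1, Slc29a1, Slc35a4, Slc35b1, Slc35e1 and Slc43a2, and lower for Slc9a2, Slc9a3r2, Slc13a4, Slc25a1, Slc25a24, Slc25a30, Slc25a32, Slc25a33, Slc25a35, Slc25a37, Slc25a40, Slc26a10, Slc35d2, Slc35f5, Slc46a1, Slc46a3, Slc50a1 and Slc52a3. With arrays shifted to the same median, 56, 59 and 47 calls held in the comparisons in that order. The calls ended by the shift were those of Slc25a42 and Slc30a9 in Wnt minus Shh, Slc25a5, Slc25a11, Slc25a46 and Slc37a3 in Wnt minus hindbrain, and Slc17a5, Slc25a17, Slc25a46, Slc27a4, Slc31a1 and Slc37a3 in Shh minus hindbrain. Member calls in every later sentence are those without a covariate or shift, unless one is named.

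**Figure D1:**
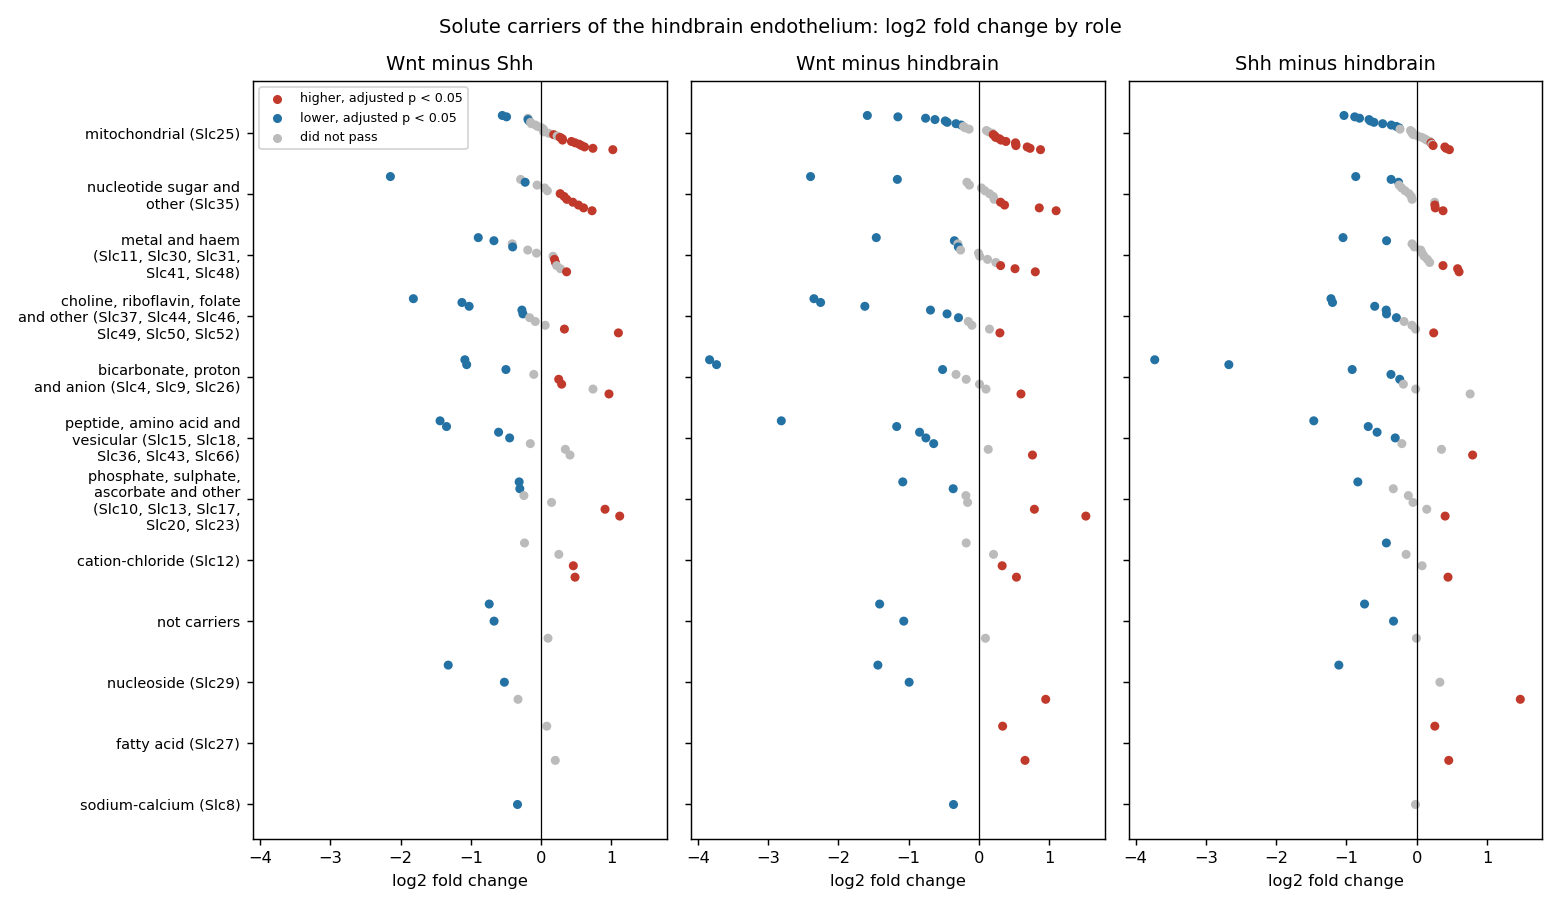
Each point is 1 of the 95 members, placed by its log2 fold change on the x axis and grouped by role down the y axis, for Wnt minus Shh, Wnt minus hindbrain and Shh minus hindbrain. Red points were called higher and blue points lower at an adjusted p under 0.05 in limma, and grey points did not pass; Slc26a10 at -3.83 is the farthest left in Wnt minus hindbrain.

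Promoter sequence was at hand for 78 members, from the RefSeq table of build GRCm38.p6, as the 250 bases before the annotated start. Slc26a10, Slc35f2 and Slc46a3 are shown because their RNA fell far in Wnt arrays, and Slc17a5 and Slc35b1 because theirs rose in both tumours. Slc26a10 lies at chr10:127180583-127180832 on the minus strand, Slc35f2 at chr9:53771285-53771534 on the plus strand, and Slc46a3 at chr5:147894816-147895065 on the minus strand. Slc17a5 lies at chr9:78588046-78588295 on the minus strand and Slc35b1 at chr11:95384606-95384855 on the plus strand. Capitals mark a match to TATAAA or to the GC box GGGCGG on either strand.
Slc26a10: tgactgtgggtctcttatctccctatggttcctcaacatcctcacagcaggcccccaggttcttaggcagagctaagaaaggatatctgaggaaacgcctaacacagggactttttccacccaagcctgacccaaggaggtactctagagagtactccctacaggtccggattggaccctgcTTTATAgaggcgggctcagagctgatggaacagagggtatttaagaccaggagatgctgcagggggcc
Slc35f2: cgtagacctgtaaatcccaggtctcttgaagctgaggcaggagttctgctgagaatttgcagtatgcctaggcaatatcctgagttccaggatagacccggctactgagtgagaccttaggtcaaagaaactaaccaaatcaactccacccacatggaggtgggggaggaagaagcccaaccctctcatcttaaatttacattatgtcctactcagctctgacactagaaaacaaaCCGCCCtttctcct
Slc46a3: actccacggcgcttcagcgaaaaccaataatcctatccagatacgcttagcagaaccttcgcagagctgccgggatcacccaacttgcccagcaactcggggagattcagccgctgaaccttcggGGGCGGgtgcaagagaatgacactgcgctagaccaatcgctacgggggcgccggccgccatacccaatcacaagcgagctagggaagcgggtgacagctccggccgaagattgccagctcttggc
Slc17a5: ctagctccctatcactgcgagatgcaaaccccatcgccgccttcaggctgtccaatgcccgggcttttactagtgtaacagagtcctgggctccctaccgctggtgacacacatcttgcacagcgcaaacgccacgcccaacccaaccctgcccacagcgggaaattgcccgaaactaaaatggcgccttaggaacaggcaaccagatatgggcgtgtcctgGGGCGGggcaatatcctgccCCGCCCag
Slc35b1: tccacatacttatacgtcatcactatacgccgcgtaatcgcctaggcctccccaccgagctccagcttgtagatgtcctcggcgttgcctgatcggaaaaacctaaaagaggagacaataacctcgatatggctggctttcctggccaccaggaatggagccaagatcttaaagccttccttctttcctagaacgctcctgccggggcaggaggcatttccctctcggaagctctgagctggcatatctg
The Slc26a10 window holds a TATAAA match, read on the reverse strand, 68 bases before the start, and no GC box. Slc35f2 and Slc46a3 hold 1 GC box each, Slc17a5 holds 2, and Slc35b1 holds neither motif. Over the 78 member windows, the GC box was in 70.5%, beside 63.5% of the windows of other genes over the hindbrain threshold and 32.9% of 27025 windows of all genes. TATAAA was in 3.85% of member windows, beside 5.85% and 13.0%. The ETS motif CCGGAAG was in 16.7%, beside 14.4% and 7.05%. The TCF/LEF motif CTTTGAT was in 1.28%, 1 member, beside 2.16% and 3.23%, and the lysosomal motif TCACGTGA in 3.85%, beside 1.96% and 0.803%. All motifs were read on both strands. The member windows had a median GC content of 61.6%, beside 61.2% for the other genes over the threshold. No window was available for Slc11a2, Slc12a2, Slc15a3, Slc20a2, Slc25a32, Slc25a35, Slc25a37, Slc25a44, Slc25a46, Slc26a2, Slc35a4, Slc35d2, Slc48a1, Slc52a3, Slc66a2, Slc8b1 and Slc9a2.

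Of the 8 carriers of bicarbonate, protons and anions, 3 were higher and 3 lower in Wnt than in Shh arrays, or 37.5% each. This stands beside 18.0% and 17.8% of all genes and 20.5% and 29.1% of the other genes over the threshold. Relative to hindbrain, 2 fell steeply in both tumours. Slc26a10, a member of the Slc26 anion exchanger family (gene ID 216441), ran between 5.66 and 6.26 with a median of 6.10 in Wnt arrays, between 5.95 and 6.46 with a median of 6.11 in Shh arrays, and between 9.42 and 10.32 with a median of 9.92 in hindbrain arrays. The 16 tumour arrays all lay far below the 8 hindbrain arrays. The fold change was -3.83 ± 0.11 in Wnt minus hindbrain (limma adjusted p = 2.22e-18), a 14.3-fold difference, and -3.73 ± 0.11 in Shh minus hindbrain (adjusted p = 8.63e-18). Wnt and Shh arrays overlapped, and their difference of -0.11 ± 0.11 did not pass (adjusted p = 0.493).

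Slc9a2, a sodium-proton exchanger of the plasma membrane (gene ID 226999), had a lowest, median and highest value of 5.04, 5.22 and 5.73 in Wnt arrays, 5.65, 6.42 and 7.29 in Shh arrays and 8.85, 9.03 and 9.37 in hindbrain arrays. Both tumour groups lay wholly below the hindbrain, and the Wnt range ended just inside the Shh range. The fold change was -3.73 ± 0.18 in Wnt minus hindbrain (limma adjusted p = 1.56e-14), -2.67 ± 0.18 in Shh minus hindbrain (adjusted p = 2.64e-11) and -1.06 ± 0.18 in Wnt minus Shh (adjusted p = 3.2e-05). With the endothelial marker mean as covariate the last value was -0.48 (adjusted p = 0.251).

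The other 6 members of this group moved less. Slc4a3, an exchanger of chloride for bicarbonate, averaged 8.63 ± 0.34 in Wnt, 7.66 ± 0.28 in Shh and 8.03 ± 0.18 in hindbrain arrays. It was thus called higher in Wnt and lower in Shh than in hindbrain (0.60 and -0.37; the first was 0.31, adjusted p = 0.483, with the endothelial marker mean as covariate), and Wnt minus Shh was 0.96 ± 0.13 (limma adjusted p = 2.63e-06), with no overlap between the tumours. The Shh call was lost without Shh replicate 2 or 3 or without hindbrain replicate 1, 2, 4 or 5, with an adjusted p between 0.0515 and 0.0756 and a fold change of -0.28 without Shh replicate 3. Slc9a8, a Golgi proton exchanger, and Slc4a2, a further anion exchanger, were 0.25 and 0.29 higher in Wnt than in Shh arrays. Slc26a2, a sulphate carrier, was 0.50 lower there (Wnt minus Shh of -0.50 ± 0.09, adjusted p = 7.52e-05).

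Slc4a4, the electrogenic sodium bicarbonate cotransporter, also known from astrocytes, averaged 8.17 ± 0.67 in Wnt, 9.25 ± 0.82 in Shh and 8.49 ± 0.81 in hindbrain arrays, with wide overlap. It was -1.09 ± 0.36 in Wnt minus Shh (limma adjusted p = 0.0197), a call lost without Wnt replicates 1 and 8 (-0.87, adjusted p = 0.0880) and with the endothelial marker mean as covariate (-0.50, adjusted p = 0.637). It was 0.76 ± 0.36 in Shh minus hindbrain (adjusted p = 0.101), which became 1.0 and a call (adjusted p = 0.0187) without Shh replicate 3. The mean of 6 astrocyte markers was 7.65 ± 0.29 in Wnt, 8.71 ± 0.47 in Shh and 7.80 ± 0.35 in hindbrain arrays. Slc9a9, an endosomal exchanger, is described with the macrophage carriers. Of 14 carbonic anhydrases, the enzymes that make bicarbonate, 5 were higher and 2 lower in Wnt than in Shh arrays. These are 35.7% and 14.3%, beside 18.0% and 17.8% of all genes. Car4, on the surface of brain capillaries, was at 8.31 ± 1.54 in Wnt, 11.65 ± 0.59 in Shh and 12.60 ± 0.13 in hindbrain arrays. Its Wnt minus Shh was -3.34 ± 0.44 (adjusted p = 1.5e-06), while that of Car11, a form without enzyme activity, was 0.97 ± 0.11 (adjusted p = 1.33e-07).

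Among the 13 members of Slc35, the family of the nucleotide sugar carriers and of others, 7 were higher and 2 lower in Wnt than in Shh arrays, or 53.8% and 15.4%, beside 18.0% and 17.8% of all genes and 20.5% and 29.1% of the other genes over the threshold. None was called higher and 1 lower with the endothelial marker mean as covariate. Slc35f2, which in human cells lets the drug sepantronium bromide enter (gene ID 72022), had a lowest, median and highest value of 7.02, 8.69 and 9.78 in Wnt arrays, 9.98, 10.83 and 11.14 in Shh arrays and 10.73, 11.00 and 11.34 in hindbrain arrays. Every Wnt array lay below every Shh and hindbrain array, and Shh and hindbrain overlapped. Wnt minus Shh was -2.15 ± 0.27 (limma adjusted p = 7.86e-07), Wnt minus hindbrain -2.40 ± 0.27 (adjusted p = 7.01e-08) and Shh minus hindbrain -0.25 ± 0.27 (adjusted p = 0.505). With the endothelial marker mean as covariate the first value was -1.18 (adjusted p = 0.0551) and the second -1.27 (adjusted p = 0.0600).

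Slc35b1, the exchanger that brings ATP into the endoplasmic reticulum (gene ID 110172), ran from the lowest to the highest array over 9.92 to 11.01 in Wnt, 9.73 to 9.91 in Shh and 9.18 to 9.67 in hindbrain, with medians of 10.53, 9.80 and 9.48. The 3 groups did not overlap. It rose by 1.10 ± 0.11 in Wnt (limma adjusted p = 1.1e-08) and by 0.37 ± 0.11 in Shh arrays (adjusted p = 0.0101) relative to hindbrain, and Wnt minus Shh was 0.72 ± 0.11 (adjusted p = 1.22e-05). That last value was 0.39 (adjusted p = 0.140) with the endothelial marker mean as covariate. Slc35b4, a carrier of UDP-xylose and UDP-N-acetylglucosamine, was at 9.75 ± 0.48 in Wnt, 9.14 ± 0.14 in Shh and 8.89 ± 0.15 in hindbrain arrays, and Wnt minus Shh was 0.60 ± 0.14 (adjusted p = 0.00167), or 0.48 (adjusted p = 0.205) with that covariate. Its Shh minus hindbrain of 0.26 did not pass (adjusted p = 0.170) but did without Wnt replicate 6 (adjusted p = 0.0392).

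The remaining rises in Wnt over Shh were those of Slc35e3 (0.53), Slc35f5 (0.45), Slc35b2 (0.36), the carrier of the sulphate donor PAPS, Slc35c2 (0.33) and Slc35a5 (0.27). Slc35e1 was -0.23. Slc35a4 was higher than in hindbrain in Wnt by 0.31 and in Shh by 0.26, and Slc35d2, a carrier of nucleotide sugars, fell by 1.16 in Wnt and by 0.87 in Shh arrays relative to hindbrain. Slc35e4 was called lower in Shh than in hindbrain (-0.26), and Slc35f6 passed in no comparison. Of 19 enzymes that make nucleotide sugars, 5 were higher and 3 lower in Wnt than in Shh arrays. These are 26.3% and 15.8%, beside 18.0% and 17.8% of all genes. Gmds, which starts GDP-fucose synthesis, was at -1.01 ± 0.11 in Wnt minus Shh (limma adjusted p = 3.83e-08) and Uxs1, which makes UDP-xylose, at 0.66 ± 0.09 (adjusted p = 3.7e-06).

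The 10 carriers of choline, riboflavin, folate and other solutes held further losses in Wnt arrays. Slc46a3, a lysosomal carrier (gene ID 71706), had a lowest, median and highest value of 8.07, 8.65 and 9.68 in Wnt arrays, 10.21, 10.39 and 10.90 in Shh arrays and 10.82, 10.86 and 11.06 in hindbrain arrays. No Wnt array reached the lowest Shh array, and 2 Shh arrays lay within the hindbrain range. Wnt minus Shh was -1.82 ± 0.16 (limma adjusted p = 1.69e-09) and Wnt minus hindbrain -2.25 ± 0.16 (adjusted p = 1.74e-11). Shh minus hindbrain was -0.43 ± 0.16 (adjusted p = 0.0326), a call that was lost without Shh replicate 1, 2, 7 or 8 or without hindbrain replicate 5, 7 or 8, with an adjusted p between 0.0519 and 0.0636.

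Slc52a3, a riboflavin carrier (gene ID 69698), had a lowest, median and highest value of 9.11, 9.72 and 10.66 in Wnt arrays, 9.84, 10.97 and 11.37 in Shh arrays and 11.17, 11.50 and 11.58 in hindbrain arrays. The Wnt arrays lay below all hindbrain arrays and overlapped the Shh arrays. The fold change was -1.03 ± 0.20 in Wnt minus Shh (limma adjusted p = 0.000262) and -1.62 ± 0.20 in Wnt minus hindbrain (adjusted p = 3.1e-07). With the endothelial marker mean as covariate these values were 0.13 (adjusted p = 0.738) and -0.28 (adjusted p = 0.489). Shh minus hindbrain was -0.60 ± 0.20 (adjusted p = 0.0228), or -0.45 without Shh replicate 2 (adjusted p = 0.0548).

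Slc50a1, a sugar carrier, was at 10.48 ± 0.14 in Wnt, 10.74 ± 0.19 in Shh and 11.17 ± 0.11 in hindbrain arrays, lower in Wnt than in hindbrain by 0.69 on the log2 scale and in Shh by 0.43 (limma adjusted p = 6.74e-08 and 0.000111), and both tumours lay below every hindbrain array. The choline carrier Slc44a1 was 0.27 lower in Wnt than in Shh arrays, and Slc44a2 was 0.33 higher. Slc49a4 was lower than in hindbrain in Wnt and in Shh arrays (-0.45 and -0.29), Slc37a3 was higher in both (0.30 and 0.24), and Slc37a4, the glucose 6-phosphate carrier of the endoplasmic reticulum, passed in no comparison. Slc37a2 and Slc46a1 are described with the macrophage carriers.

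**Figure D2:**
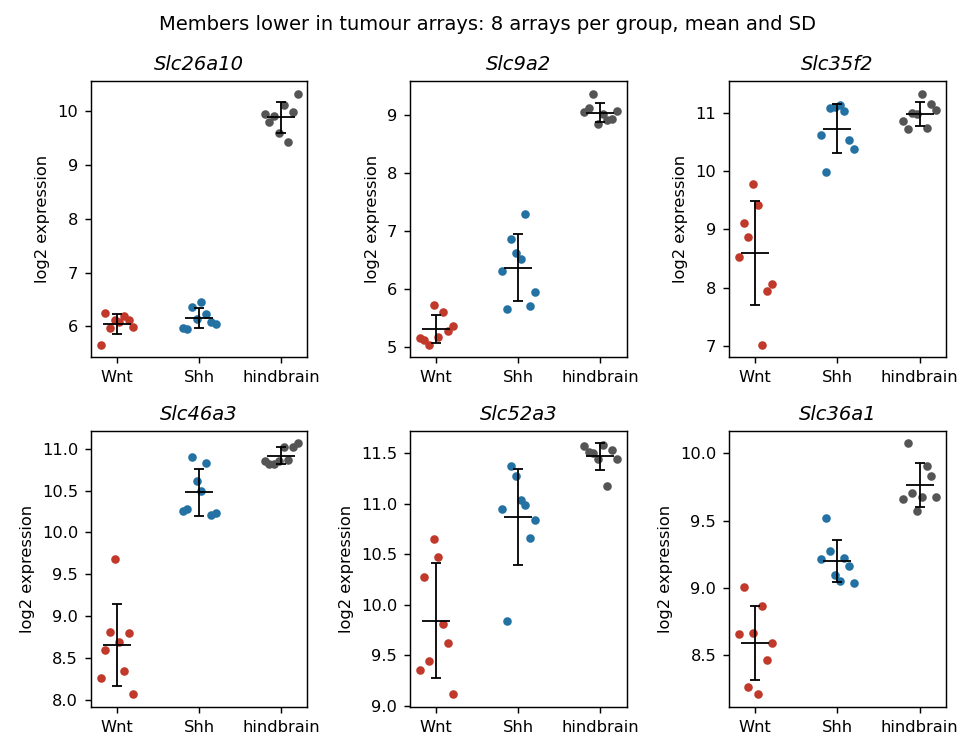
Each point is 1 array, with log2 expression on the y axis and the Wnt, Shh and hindbrain groups on the x axis, and bars give the mean and SD of 8 arrays. Slc26a10 and Slc9a2 lie below the hindbrain in both tumours, while Slc35f2 and Slc46a3 are lowest in the Wnt arrays, with medians of 8.69 and 8.65.

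Among the 6 carriers of phosphate, sulphate, ascorbate and other anions, 2 were higher and 2 lower in Wnt than in Shh arrays, or 33.3% each. This stands beside 18.0% and 17.8% of all genes and 20.5% and 29.1% of the other genes over the threshold. Slc17a5, the lysosomal exporter of sialic acid (gene ID 235504), had a lowest, median and highest value of 10.14, 11.15 and 11.59 in Wnt arrays, 9.88, 9.94 and 10.28 in Shh arrays and 9.37, 9.58 and 9.74 in hindbrain arrays. Both tumours lay above all hindbrain arrays, and 1 Wnt array lay within the Shh range. The rise was 1.52 ± 0.13 in Wnt minus hindbrain (limma adjusted p = 8.81e-10) and 0.40 ± 0.13 in Shh minus hindbrain (adjusted p = 0.0188), and Wnt minus Shh was 1.12 ± 0.13 (adjusted p = 2.9e-07). The Shh call was lost with arrays shifted to the same median (0.32, adjusted p = 0.0745). It was also lost with the microglia marker mean as covariate (0.27, adjusted p = 0.322).

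The phosphate carrier Slc20a2, whose loss in humans leads to calcification in the brain, was at 9.74 ± 0.38 in Wnt, 8.84 ± 0.15 in Shh and 8.96 ± 0.30 in hindbrain arrays. The tumours did not overlap, and Wnt minus Shh was 0.91 ± 0.14 (limma adjusted p = 1.14e-05). Slc20a1, the other phosphate carrier of its family, passed in no comparison, its Shh minus hindbrain of -0.33 reaching an adjusted p of 0.0742; without Shh replicate 2, hindbrain replicate 8 or Wnt replicate 4 that value passed, at an adjusted p between 0.0366 and 0.0455. Slc10a7 and the ascorbate carrier Slc23a2 were lower in Wnt than in Shh arrays (-0.31 and -0.30).

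Slc13a4, a sulphate carrier also known from choroid plexus, was at 7.14 ± 0.61 in Wnt, 7.39 ± 0.69 in Shh and 8.22 ± 0.73 in hindbrain arrays. It was lower than in hindbrain in Wnt (-1.08 ± 0.32, limma adjusted p = 0.00644) and in Shh arrays (-0.84 ± 0.32, adjusted p = 0.0395), with overlap in both. The Shh call was lost without Shh replicate 2, 3 or 7 or hindbrain replicate 1, 5 or 8, with an adjusted p between 0.0617 and 0.0938. The mean of 6 choroid plexus markers was 8.92, 7.98 and 9.51 in hindbrain replicates 1, 5 and 8, against 6.06 to 6.73 in the rest. Slc13a4 was at 9.12, 8.44 and 9.44 in these replicates and at 7.34 to 8.01 in the rest. Its hindbrain mean of 8.22 thus passed the threshold of 8 through these replicates. The calls against hindbrain use the same values that made it a member, and they are given as a description. Without replicates 1 and 8, but with replicate 5 kept, the Wnt and Shh values were -0.73 (limma adjusted p = 0.0506) and -0.49 (adjusted p = 0.218). With the endothelial marker mean as covariate they were -0.014 (adjusted p = 0.992) and -0.69 (adjusted p = 0.0781).

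All 3 nucleoside carriers behaved differently. Slc29a1, the equilibrative carrier that takes up adenosine across the plasma membrane (gene ID 63959), had a lowest, median and highest value of 9.52, 10.19 and 10.47 in Wnt arrays, 10.10, 10.56 and 10.95 in Shh arrays and 8.94, 9.07 and 9.31 in hindbrain arrays. Every tumour array exceeded every hindbrain array, and the tumours overlapped. The rise was 0.95 ± 0.13 in Wnt (limma adjusted p = 1.62e-06) and 1.47 ± 0.13 in Shh arrays (adjusted p = 5.2e-09), and Wnt minus Shh was -0.52 ± 0.13 (adjusted p = 0.00285). That last value was -0.43 (adjusted p = 0.221) with the endothelial marker mean as covariate.

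Slc29a4, a carrier of monoamines and adenosine, averaged 7.49 ± 0.37 in Wnt, 8.81 ± 0.35 in Shh and 8.48 ± 0.42 in hindbrain arrays. All Wnt arrays lay below all Shh and hindbrain arrays, with -1.32 ± 0.18 in Wnt minus Shh (limma adjusted p = 2.25e-06) and -0.99 ± 0.18 in Wnt minus hindbrain (adjusted p = 5.92e-05). Shh minus hindbrain was 0.33 (adjusted p = 0.159), and 0.44 without hindbrain replicate 8 (adjusted p = 0.0440). In hindbrain replicates 1, 5 and 8 Slc29a4 was at 8.89, 8.71 and 9.26, against 8.09 to 8.30 in the rest. Those replicates had choroid plexus marker means of 8.92, 7.98 and 9.51, against 6.06 to 6.73 in the rest. The part of choroid plexus cells in the hindbrain level of Slc29a4 was not tested. Of 12 enzymes of nucleoside metabolism, 5 were higher and 1 lower in Wnt than in Shh arrays. These are 41.7% and 8.33%, beside 18.0% and 17.8% of all genes. Upp1, which cleaves uridine, was at 9.84 ± 0.56 in Wnt, 7.68 ± 0.29 in Shh and 7.27 ± 0.28 in hindbrain arrays, and Adk, which traps adenosine as AMP, at 9.73 ± 0.23, 8.58 ± 0.22 and 8.88 ± 0.11 in the same order. Wnt minus Shh was 2.15 ± 0.19 for Upp1 and 1.15 ± 0.10 for Adk (adjusted p = 1.92e-09 and 1.29e-09).

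None of the 7 peptide, amino acid and vesicular carriers was higher in Wnt than in Shh arrays, and 4 were lower, or 57.1%. Of all genes 17.8% were called lower, and of the other genes over the threshold 29.1%. Slc43a2, a carrier of large neutral amino acids (gene ID 215113), had a lowest, median and highest value of 6.85, 7.30 and 7.84 in Wnt arrays, 8.26, 8.77 and 9.74 in Shh arrays and 7.86, 8.01 and 8.13 in hindbrain arrays. The 3 groups did not overlap, the Wnt arrays lying below the hindbrain and the Shh arrays above it. Wnt minus Shh was -1.44 ± 0.16 (limma adjusted p = 7.24e-08), Wnt minus hindbrain -0.64 ± 0.16 (adjusted p = 0.00136) and Shh minus hindbrain 0.79 ± 0.16 (adjusted p = 0.000265). The Wnt minus hindbrain value was -0.53 (adjusted p = 0.279) with the endothelial and -0.24 (adjusted p = 0.490) with the microglia marker mean as a covariate.

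Slc36a1, which carries protons with small amino acids out of lysosomes, was at 8.59 ± 0.28 in Wnt, 9.20 ± 0.16 in Shh and 9.76 ± 0.16 in hindbrain arrays, and no groups overlapped. It was -1.17 ± 0.10 in Wnt minus hindbrain (limma adjusted p = 8.62e-10), -0.56 ± 0.10 in Shh minus hindbrain (adjusted p = 0.000102) and -0.61 ± 0.10 in Wnt minus Shh (adjusted p = 3.81e-05). Slc36a4, of the same family, was higher in Wnt than in hindbrain arrays (0.76 ± 0.17, adjusted p = 0.000651), or 0.20 (adjusted p = 0.748) with the endothelial marker mean as covariate. The Slc36a4 probe set used averaged 9.66 in Wnt, 9.25 in Shh and 8.90 in hindbrain arrays. A further probe set of the gene, not used, differed less, at 9.17 in Wnt, 9.09 in Shh and 8.99 in hindbrain arrays. For the probe set used, Wnt minus Shh of 0.41 had an adjusted p of 0.0659. It passed without Wnt replicate 2 or Shh replicate 1, 2 or 8, at an adjusted p between 0.00936 and 0.0489. For the same probe set, Shh minus hindbrain of 0.35 passed without Shh replicate 6 (adjusted p = 0.0295). Slc15a4, a lysosomal carrier of peptides and histidine, fell by 0.85 in Wnt and by 0.69 in Shh arrays relative to hindbrain, and Slc66a2 by 0.76 and 0.31. For Slc15a4 the Shh call was lost with the microglia marker mean as covariate (-0.33, limma adjusted p = 0.0515). The part of microglia in its falls was not tested. Slc18b1, a vesicular polyamine carrier, passed in no comparison.

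**Figure D3:**
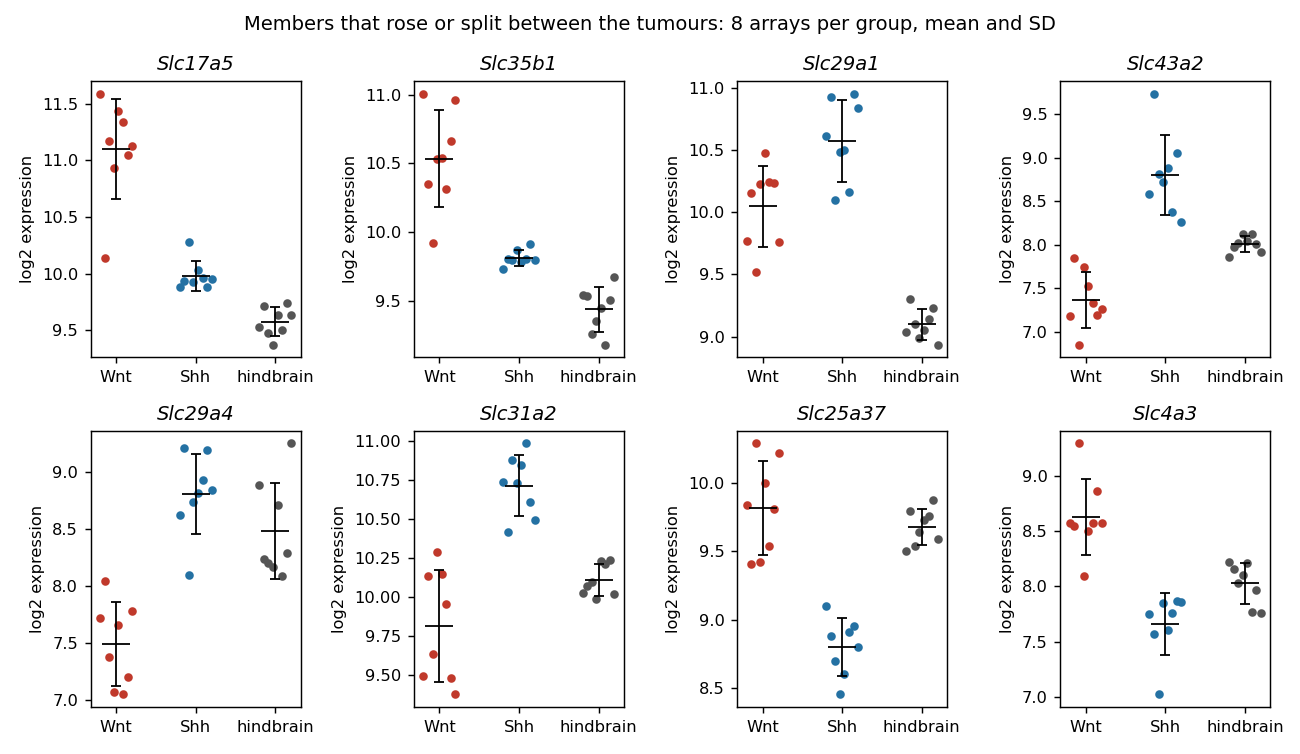
Each point is 1 array, with log2 expression on the y axis and the Wnt, Shh and hindbrain groups on the x axis, and bars give the mean and SD of 8 arrays. Slc17a5 and Slc35b1 are highest in Wnt arrays, Slc29a1 is above the hindbrain in both tumours, and Slc43a2 lies below the hindbrain median of 8.01 in Wnt and above it in Shh arrays.

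The 26 mitochondrial carriers, all the members of Slc25, made up the largest role group. Slc25a17, of the peroxisome, and Slc25a46, of the outer mitochondrial membrane, are counted with them. In Wnt minus Shh 11 of the 26 were higher and 4 lower, or 42.3% and 15.4%. This stands beside 18.0% and 17.8% of all genes and 20.5% and 29.1% of the other genes over the threshold. Only 5 of the 26 were called higher, Slc25a17 among them, and 1 lower with the endothelial marker mean as covariate. In Wnt minus hindbrain 12 of the 26 were higher and 8 lower, or 46.2% and 30.8%. Of all genes 23.2% and 22.0% were so called, and of the other genes over the threshold 29.2% and 38.0%. In Shh minus hindbrain 5 were higher and 10 lower, or 19.2% and 38.5%, beside 18.9% and 18.9%, and 23.1% and 27.7%. Slc25a37, mitoferrin 1, which brings iron into mitochondria and is also known from developing red blood cells (gene ID 67712), had a lowest, median and highest value of 9.41, 9.83 and 10.29 in Wnt arrays, 8.45, 8.84 and 9.10 in Shh arrays and 9.50, 9.69 and 9.88 in hindbrain arrays. Only the Shh arrays stood apart, below the others. In Wnt minus Shh it was 1.02 ± 0.12 (limma adjusted p = 2.23e-07) and in Shh minus hindbrain -0.88 ± 0.12 (adjusted p = 2.29e-06), while Wnt minus hindbrain was 0.14 (adjusted p = 0.384). Slc25a28, mitoferrin 2, was -0.19 in Wnt minus Shh (adjusted p = 0.0235) and -0.25 in Wnt minus hindbrain (adjusted p = 0.00193).

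Slc25a33, a carrier of pyrimidine nucleotides, was at 7.19 ± 0.29 in Wnt, 7.74 ± 0.30 in Shh and 8.77 ± 0.33 in hindbrain arrays. It was the member of its family with the greatest difference in Wnt minus hindbrain, -1.59 ± 0.15 (limma adjusted p = 2.34e-09), and was -1.04 ± 0.15 in Shh minus hindbrain (adjusted p = 4.68e-06). Slc25a36, which also carries pyrimidine nucleotides, was higher in Wnt than in Shh arrays by 0.30. Slc25a45 fell by 1.15 in Wnt and by 0.66 in Shh arrays relative to hindbrain.

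The aspartate-glutamate carrier Slc25a12 separated the Wnt arrays, at 10.37 ± 0.12, from the Shh arrays at 9.80 ± 0.07 and the hindbrain arrays at 9.84 ± 0.15, with 0.57 ± 0.07 in Wnt minus Shh (limma adjusted p = 1.69e-07). Slc25a23, a carrier of ATP-magnesium and phosphate, was at 10.35 ± 0.35 in Wnt, 9.62 ± 0.28 in Shh and 9.48 ± 0.14 in hindbrain arrays (Wnt minus Shh 0.74 ± 0.13, adjusted p = 6.98e-05, or 0.45 and 0.170 with the endothelial marker mean as covariate). Its relative Slc25a25 went the other way, at -0.76 in Wnt and -0.61 in Shh minus hindbrain, and Slc25a24, of the same kind, was called lower only in Shh minus hindbrain (-0.25).

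The ADP-ATP carriers differed from each other. Slc25a4 was higher in Wnt than in Shh arrays (0.54 ± 0.09, limma adjusted p = 2.47e-05) and than in hindbrain arrays (0.73). Slc25a5 was higher than in hindbrain in Wnt (0.23) and in Shh arrays (0.40 ± 0.06, adjusted p = 2.73e-05). Its Wnt minus Shh of -0.17 (adjusted p = 0.0405) was lost without any 1 of Wnt replicates 1, 3, 4, 6 and 7 and Shh replicates 1, 2, 4, 5, 7 and 8, at an adjusted p between 0.0544 and 0.0857. Slc25a17, a peroxisomal carrier, was 0.48 ± 0.06 in Wnt minus Shh (adjusted p = 1.02e-06), 0.69 in Wnt minus hindbrain and 0.20 in Shh minus hindbrain. Slc25a35 was 0.62 ± 0.14 in Wnt minus Shh (adjusted p = 0.000741) and -0.81 in Shh minus hindbrain.

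Smaller rises in Wnt over Shh were those of the coenzyme A carrier Slc25a42 (0.43), Slc25a16 (0.30), the oxoglutarate carrier Slc25a11 (0.27) and the phosphate carrier Slc25a3 (0.18). Slc25a39, which brings in glutathione, Slc25a20, the carnitine-acylcarnitine carrier, and Slc25a46, of the outer membrane, were higher than in hindbrain in both tumours (0.52, 0.38 and 0.24 in Wnt and 0.42, 0.46 and 0.23 in Shh). The citrate carrier Slc25a1, the folate carrier Slc25a32, Slc25a30 and Slc25a40 were lower than in hindbrain in both tumours (-0.63, -0.45, -0.48 and -0.33 in Wnt and -0.48, -0.68, -0.29 and -0.36 in Shh). Slc25a38 and Slc25a44 passed in no comparison. In the list of 14 further genes of mitochondrial transport, 6 were higher, or 42.9%, and none was lower in Wnt than in Shh arrays, beside 18.0% and 17.8% of all genes. Sfxn1, a serine carrier, was at 0.64 ± 0.10 in Wnt minus Shh and Sfxn3 at 0.57 ± 0.08 (limma adjusted p = 1.15e-05 and 6.21e-06).

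**Figure D4:**
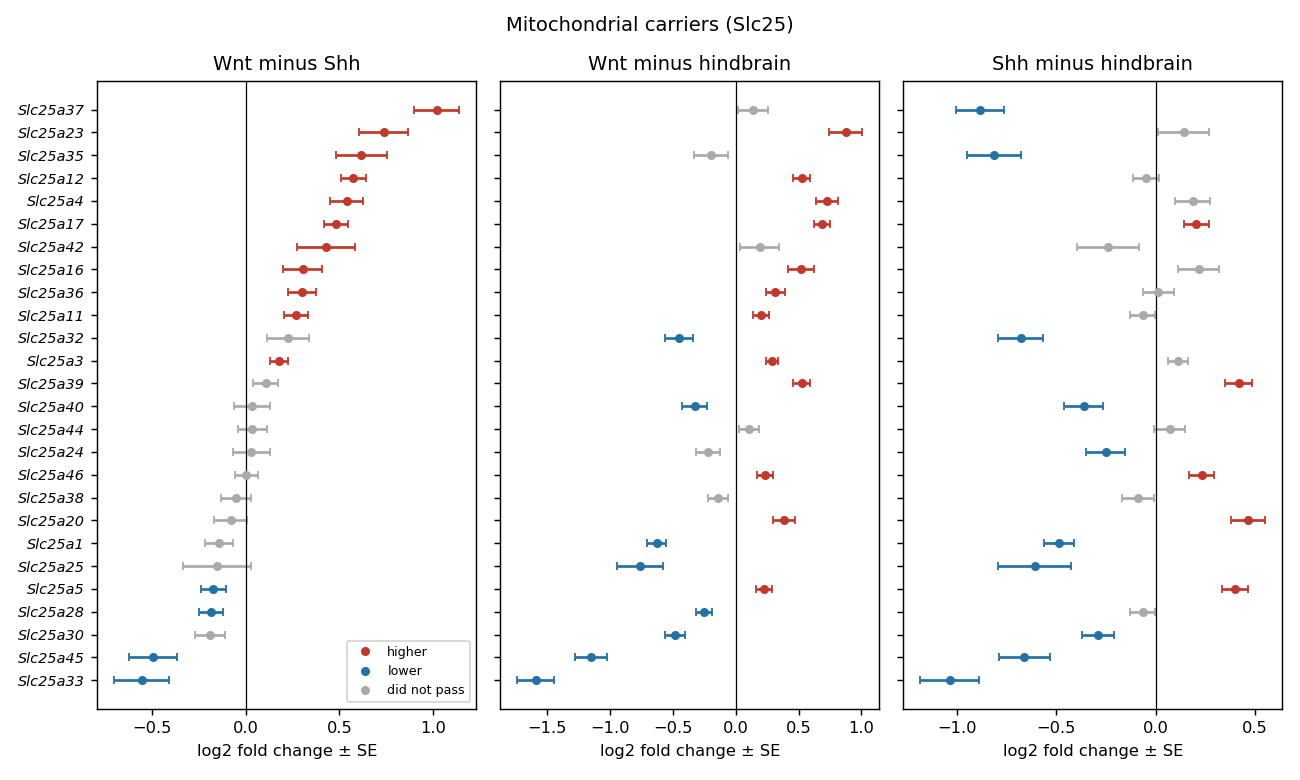
Log2 fold changes ± SE of the 26 mitochondrial carriers, in the order of Wnt minus Shh, on the x axis of 3 panels, with red for called higher, blue for called lower and grey for those that did not pass in limma. Slc25a37 is highest in Wnt minus Shh at 1.02 and Slc25a33 lowest at -0.55.

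Of the 12 metal and haem carriers, 3 were higher and 3 lower in Wnt than in Shh arrays, or 25.0% each. This stands beside 18.0% and 17.8% of all genes and 20.5% and 29.1% of the other genes over the threshold. Slc31a2, which acts on copper in endosomes and lysosomes, was at 9.82 ± 0.36 in Wnt, 10.71 ± 0.20 in Shh and 10.11 ± 0.10 in hindbrain arrays, with all Shh arrays above all others. The difference Wnt minus Shh was -0.90 ± 0.12 (limma adjusted p = 1.29e-06), or -0.23 (adjusted p = 0.213) with the endothelial marker mean as covariate, and Shh minus hindbrain was 0.60 ± 0.12 (adjusted p = 0.000248). Its Wnt minus hindbrain of -0.29 (adjusted p = 0.0449) was lost without any 1 of 11 arrays, Wnt replicates 1, 3, 7 and 8, Shh replicates 1 and 4 and hindbrain replicates 2, 3, 5, 6 and 7, at an adjusted p between 0.0503 and 0.109. Slc31a1, the copper importer of the plasma membrane, was -0.67 ± 0.12 in Wnt minus Shh (adjusted p = 0.000113), or -0.023 (adjusted p = 0.939) with the endothelial marker mean as covariate. It was 0.37 in Shh minus hindbrain (adjusted p = 0.0198), or 0.28 (adjusted p = 0.0796) with arrays shifted to the same median and 0.056 (adjusted p = 0.829) with the microglia marker mean as covariate. Its Wnt minus hindbrain of -0.30 had an adjusted p of 0.0518 and passed without any 1 of Wnt replicates 4, 5 and 6, Shh replicates 2, 3 and 5 and hindbrain replicates 2 and 6, at an adjusted p between 0.0232 and 0.0493.

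Slc41a1, which moves magnesium, was higher than in hindbrain in Wnt (0.80 ± 0.13, limma adjusted p = 1.1e-05) and in Shh arrays (0.58 ± 0.13, adjusted p = 0.000823). Its Wnt minus Shh of 0.22 (adjusted p = 0.195) became 0.33 without Wnt replicate 2 (adjusted p = 0.0156). Slc41a3 was -0.43 in Shh minus hindbrain. Among the zinc carriers, Slc30a5, Slc30a6 and Slc30a9 were higher in Wnt than in Shh arrays (0.20, 0.36 and 0.19), and Slc30a4 and Slc30a7 passed in no comparison. Slc11a2, an iron importer, was -0.41 in Wnt minus Shh (adjusted p = 0.0170) and -0.35 in Wnt minus hindbrain. Slc48a1, a haem carrier, passed in no comparison, though its Wnt minus Shh of 0.27 (adjusted p = 0.0697) did without Shh replicate 2 or 3 (adjusted p = 0.0176 and 0.0138).

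Among the 4 cation-chloride cotransporters, Slc12a2, which brings sodium, potassium and chloride into the cell, was at 10.86 ± 0.43 in Wnt, 10.41 ± 0.14 in Shh and 10.33 ± 0.18 in hindbrain arrays, with 0.46 ± 0.13 in Wnt minus Shh (limma adjusted p = 0.00927). Slc12a4, which takes potassium and chloride out, was 0.48 ± 0.07 in Wnt minus Shh (adjusted p = 1.35e-05), with no overlap. Its Shh minus hindbrain of -0.15 did not pass (adjusted p = 0.115) but did without Shh replicate 1 (adjusted p = 0.0449). Slc12a7, of the same kind, was 0.44 and Slc12a9 was -0.43 in Shh minus hindbrain. Of 14 WNK and SGK regulators of such cotransporters, 4 were higher and 5 lower in Wnt than in Shh arrays. These are 28.6% and 35.7%, beside 18.0% and 17.8% of all genes. Nedd4l, a ubiquitin ligase, was -1.47 ± 0.14 (adjusted p = 1.34e-08) and the kinase Oxsr1, which activates Slc12a2, was -0.47 ± 0.06 (adjusted p = 1.23e-06).

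Sodium pump subunits and regulators keep the gradient on which many carriers draw. Of 9 of them, 2 were higher and 3 lower in Wnt than in Shh arrays. These are 22.2% and 33.3%, beside 18.0% and 17.8% of all genes. Atp1b1, a beta subunit, was at 11.84 ± 0.48 in Wnt, 9.10 ± 0.39 in Shh and 9.92 ± 0.60 in hindbrain arrays, with 2.73 ± 0.23 in Wnt minus Shh (limma adjusted p = 1.33e-09), and Fxyd7 was -0.41 ± 0.09 (adjusted p = 0.00114). Both fatty acid transport proteins were higher than in hindbrain in both tumours, Slc27a1 by 0.66 in Wnt and by 0.45 in Shh arrays and Slc27a4 by 0.34 and 0.26. Slc8b1, which exchanges sodium for calcium in mitochondria, was -0.34 ± 0.10 in Wnt minus Shh (adjusted p = 0.00898).

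The symbol rule also takes in 3 genes that are not carriers. Slc9a3r2, a scaffold that binds membrane proteins, was at 10.44 ± 0.46 in Wnt, 11.11 ± 0.43 in Shh and 11.85 ± 0.15 in hindbrain arrays. For Wnt minus Shh it gave -0.67 ± 0.18 (limma adjusted p = 0.00405) and for Wnt minus hindbrain -1.41 ± 0.18 (adjusted p = 3.09e-07), or 0.42 (adjusted p = 0.0501) and -0.14 (adjusted p = 0.650) with the endothelial marker mean as covariate. Slc9a3r1, the related scaffold, was -0.74 ± 0.12 in Wnt minus Shh (adjusted p = 3.12e-05) and -1.07 in Wnt minus hindbrain. Its Shh minus hindbrain of -0.33 (adjusted p = 0.0361) was lost without any 1 of Shh replicates 1, 4, 5, 6 and 8 and hindbrain replicates 1, 2, 5, 6 and 7, at an adjusted p between 0.0514 and 0.0729. Slc4a1ap passed in no comparison.

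A group of 5 members is known from macrophages and microglia: Slc11a1, which pumps iron and manganese out of phagosomes, the lysosomal carriers Slc15a3 and Slc29a3, the sugar phosphate exchanger Slc37a2 and the folate carrier Slc46a1. Slc15a3 (gene ID 65221) had a lowest, median and highest value of 5.63, 6.48 and 7.47 in Wnt arrays, 7.12, 7.52 and 8.82 in Shh arrays and 8.41, 9.19 and 10.23 in hindbrain arrays. The Wnt arrays lay below all hindbrain arrays and the Shh arrays overlapped both. Wnt minus hindbrain was -2.81 ± 0.27 (limma adjusted p = 4.13e-09), Shh minus hindbrain -1.47 ± 0.27 (adjusted p = 0.000121) and Wnt minus Shh -1.35 ± 0.27 (adjusted p = 0.000284).

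Slc37a2 was at 7.08 ± 0.28 in Wnt, 8.21 ± 0.84 in Shh and 9.43 ± 0.65 in hindbrain arrays, with -1.13 ± 0.30 in Wnt minus Shh (limma adjusted p = 0.00393). Slc11a1 averaged 8.83 ± 0.65, 9.24 ± 1.04 and 10.29 ± 0.35 in Wnt, Shh and hindbrain arrays, and Slc29a3 averaged 8.82 ± 0.43, 9.15 ± 0.48 and 10.26 ± 0.30. Both were called lower than in hindbrain in each tumour (adjusted p between 9.12e-07 and 0.0180), and neither passed in Wnt minus Shh. Slc46a1 went another way: it was at 9.26 ± 0.26 in Wnt, 8.17 ± 0.53 in Shh and 9.36 ± 0.29 in hindbrain arrays. Its Wnt minus Shh was 1.10 ± 0.18 (adjusted p = 2.57e-05), or 0.54 (adjusted p = 0.206) with the endothelial marker mean as covariate, and Wnt minus hindbrain was -0.10 (adjusted p = 0.694).

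Within groups, each of these carriers was set against the mean of the 11 microglia markers over the 8 arrays, as part of 39 such relations, with exact two-sided permutation tests and Benjamini-Hochberg adjustment over the 39. Slc29a3 had Pearson's r of 0.894 in Wnt, 0.966 in Shh and 0.903 in hindbrain arrays and Spearman's rho of 0.952, 0.976 and 0.881 (exact p for r of 0.000372, 9.92e-05 and 0.00345, adjusted 0.00363, 0.00363 and 0.00896; exact p for rho of 0.00114, 0.000397 and 0.00724). Without the 2 arrays farthest from the median, r was 0.932, 0.941 and 0.966. Slc46a1 had r of 0.960 in Shh and 0.872 in hindbrain arrays (exact p = 0.000595 and 0.00685, adjusted 0.00363 and 0.0141; rho 0.905 in each, exact p = 0.00456) but 0.465 in Wnt arrays (exact p = 0.246, adjusted 0.310; rho 0.262, exact p = 0.536). Without the 2 farthest arrays those were 0.882, 0.906 and 0.306.

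Over the 5 carriers and 3 groups together with Slc9a9, whose relation was added after its values were seen, 15 of 18 relations passed the adjusted threshold, with r between 0.314 and 0.966. Those that did not were Slc46a1, Slc37a2 and Slc9a9 in Wnt arrays. With the microglia marker mean as a covariate, Slc11a1 turned to 0.62 in Wnt minus hindbrain and 0.61 in Shh minus hindbrain (limma adjusted p = 0.0285 and 0.0175), Slc46a1 to 0.84 in Wnt minus hindbrain (adjusted p = 0.000887), and Slc37a2 to 0.04 in Shh minus hindbrain (adjusted p = 0.930). Slc29a3 was then at -0.29 and -0.19 (adjusted p = 0.109 and 0.250), and Slc15a3 at -0.31 in Shh minus hindbrain (adjusted p = 0.326). Slc9a9 averaged 9.30 ± 0.75 in Wnt, 8.56 ± 0.85 in Shh and 9.48 ± 0.34 in hindbrain arrays, and Shh minus hindbrain was -0.92 ± 0.32 (adjusted p = 0.0249), or 0.27 (adjusted p = 0.579) with that covariate. The Shh call was lost without Shh replicate 5 or 8 (adjusted p = 0.0593 and 0.0575), and its Wnt minus Shh of 0.74 (adjusted p = 0.0744) passed without Wnt replicate 5 or Shh replicate 2 (adjusted p = 0.0450 and 0.0164).

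**Figure D5:**
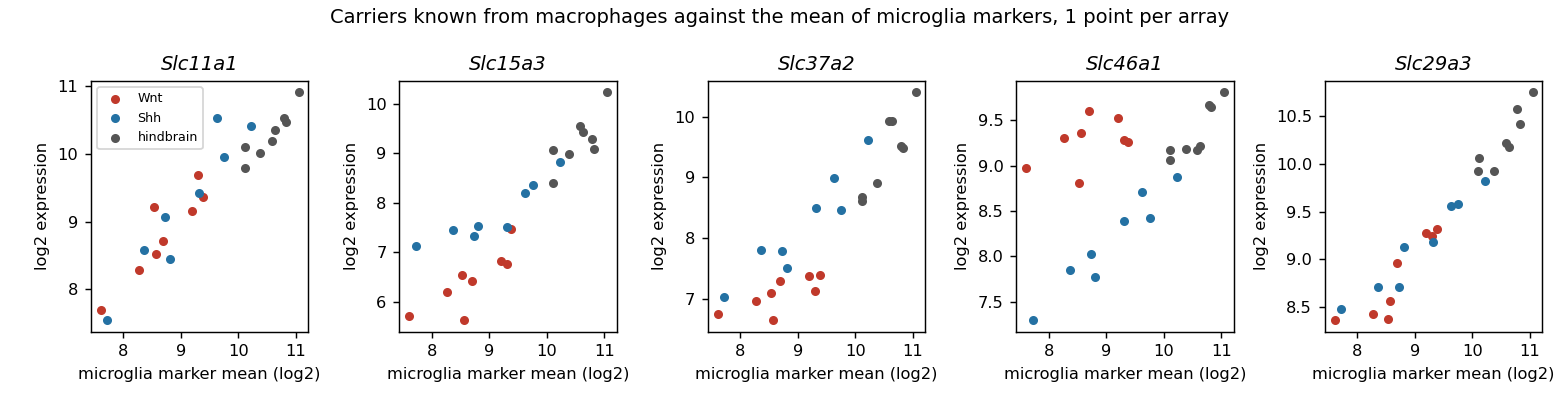
Each point is 1 array, with the mean of 11 microglia and macrophage markers on the x axis and the log2 expression of 1 carrier on the y axis, coloured by group. Slc29a3 runs along with the markers in all groups, with r of 0.894, 0.966 and 0.903 in Wnt, Shh and hindbrain arrays, and the Wnt arrays of Slc46a1 lie above the Shh arrays of the same marker mean.

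The 5 members with falls described above, Slc26a10, Slc9a2, Slc35f2, Slc46a3 and Slc52a3, were set against the endothelial marker mean within groups in the same way, a choice made after their values were seen. In Shh arrays all 5 passed, with Slc9a2 at r = 0.947 (exact p = 0.000496, adjusted 0.00363; rho 0.952, exact p = 0.00114; r = 0.931 without the 2 farthest arrays). In Wnt arrays only Slc52a3 passed, at r = 0.891 (exact p = 0.00330, adjusted 0.00896; rho 0.952, exact p = 0.00114; r = 0.836 without the 2 farthest), and in hindbrain arrays only Slc26a10, at r = 0.895 (exact p = 0.00320, adjusted 0.00896; rho 0.905, exact p = 0.00456; r = 0.705 without the 2 farthest). The part of the endothelial markers in the falls was not tested. In the Wnt comparisons the covariate values given above cannot tell it apart from group. Slc4a4 followed the astrocyte marker mean in Shh arrays at r = 0.965 and in hindbrain arrays at 0.913 (exact p = 0.000471 and 0.00273, adjusted 0.00363 and 0.00887; rho 0.929 and 0.833, exact p = 0.00223 and 0.0154; r = 0.812 and 0.890 without the 2 farthest), but not in Wnt arrays at 0.373 (exact p = 0.364, adjusted 0.430; rho 0.286, exact p = 0.501). Slc27a1 had r between -0.02 and 0.10 with the same markers, and none of its 3 relations passed.

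The median SD of the members over 8 arrays was 0.206 in Wnt, 0.186 in Shh and 0.160 in hindbrain arrays, beside 0.191, 0.168 and 0.140 for the other genes over the threshold. An SD above 0.5 was found for 7, 9 and 5 members, or 7.37%, 9.47% and 5.26%, beside 9.79%, 6.39% and 2.67% of the other genes. The members just inside the threshold were Slc43a2 at 8.01, Slc4a3 at 8.03 and Slc25a35 at 8.04 in hindbrain arrays, and the genes just outside were Slc9a7 at 7.96, Slc13a3 at 7.94 and Slc25a15 at 7.94. A further probe set of the same gene was on the array and not used for 7 members: Slc12a4, Slc23a2, Slc29a1, Slc29a3, Slc35a4, Slc35e4 and Slc36a4. For Slc29a1 it was at 5.84 in Wnt, 6.21 in Shh and 5.79 in hindbrain arrays.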

How the data were processed

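RNA of sorted endothelial cells was measured on 24 Affymetrix arrays, 8 per group, grouped by the labels. The deposited values are log2 intensities, as their range of 1.73 to 14.01 shows. How the authors summarised and normalised them is not given in the sources used here; Partek 6.6 is named in the submitters' processing notes without its role. Of 41345 probe sets, 190 controls, 15820 without a symbol and 1814 with several symbols (15 of them in the families described) were left out. Where a gene had several probe sets, the brightest on average over the 24 arrays stood for it.

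The members, roles and lists were chosen with earlier results of these data known. The named genes were the 6 largest rises and falls with no overlap in each comparison, the leading members of each role, the members next to the threshold, those that are no carriers, carriers known from other cells, and 2 genes per list; other members are named to account for all 95. Linear models with 3 groups were fitted in R 4.3.3 with limma 3.58.1 and its eBayes step (21 residual degrees of freedom, two-sided, Benjamini-Hochberg over 22180 genes). The fit was also run on simulated data with independent noise and far fewer changed genes than were called here. There it recovered 35 to 38 of 50 changes of 0.5 and all 50 changes of 2 on the log2 scale. The p-values measure the spread between the labelled biological replicates; 8 arrays per group limit the precision. Replicate numbers do not pair the groups (correlation of deviations between -0.15 and 0.28, over 0.1 in 3 of 24 pairs). No marker of the red blood cell list had a probe set of its own. Protein sequences were not used here.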

Additional observations from a re-analysis of the deposited data

Results flagged for a closer look

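Among 147 sets of 8 arrays (49 named members in 3 groups), 12 held an array whose gap to its neighbour, as a share of the range, was above Dixon's critical value; chance marks about 1 set in 20. In Wnt arrays these were Slc17a5 in replicate 2 at 10.14 (next 10.93), Slc26a10 in replicate 1 at 5.66 (next 5.98), Slc35b4 in replicate 6 at 10.75 (next 9.95) and Slc46a3 in replicate 4 at 9.68 (next 8.81). In Shh arrays they were Slc17a5 in replicate 3 at 10.28 (next 10.03), Slc4a3 in replicate 3 at 7.02 (next 7.57), Slc52a3 in replicate 2 at 9.84 (next 10.67), Slc9a3r1 in replicate 2 at 9.61 (next 9.08), Slc25a11 in replicate 6 at 10.35 (next 10.62) and Slc25a35 in replicate 5 at 6.86 (next 7.21). In hindbrain arrays they were Slc52a3 in replicate 6 at 11.17 (next 11.44) and Slc9a3r1 in replicate 8 at 9.01 (next 9.35).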

How the results depend on the processing

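Counts of members called kept within 1.5 times of the values in the report under quantile normalization, another variance model, the mean of all probe sets of a gene, no dim genes, only the compared groups, Wnt replicates 1 and 8 left out and hindbrain replicates 1 and 8 left out. The exceptions are these. With the endothelial marker mean as a covariate, Wnt minus Shh gave 11 higher and 11 lower and Wnt minus hindbrain 14 and 19. With the microglia marker mean, an alternative chosen after seeing the data like the omission of hindbrain replicates 1 and 8, Shh minus hindbrain gave 11 and 19 and the Wnt minus hindbrain median was 0.046. The members with a hindbrain mean of at least 9 (55) gave 18 higher and a median of -0.11 in Wnt minus Shh, 17 higher and -0.16 in Wnt minus hindbrain, and 23 lower and -0.15 in Shh minus hindbrain; fewer members were counted. The 89 members by the mean over all arrays had a Wnt minus hindbrain median of 0.085, array weights gave -0.047, and shifting arrays to the same median gave -0.21 for Wnt and -0.17 for Shh minus hindbrain. The cause was not tested. Leaving out 1 array at a time gave 28 to 32 higher, 26 to 29 lower and a median of 0.011 to 0.048 in Wnt minus Shh, 29 to 30, 32 to 36 and -0.13 to -0.035 in Wnt minus hindbrain, and 18 to 20, 29 to 37 and -0.10 to -0.066 in Shh minus hindbrain.

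With the replicate number as a block the calls were 31 higher and 26 lower in Wnt minus Shh, 30 and 35 in Wnt minus hindbrain and 18 and 34 in Shh minus hindbrain. Of the named members' calls the block ended those of Slc25a5 in Wnt minus Shh (adjusted p = 0.0535) and Slc4a3 in Shh minus hindbrain (adjusted p = 0.0683), and it changed no other.

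Signs turned for these named members. With the endothelial covariate, Wnt minus Shh was 0.67 for Slc13a4, 0.29 for Slc26a10, -0.034 for Slc35a4, -0.073 for Slc36a4, 0.020 for Slc50a1, 0.13 for Slc52a3, 0.42 for Slc9a3r2 and -0.64 for Slc9a9, Wnt minus hindbrain 0.040 for Slc25a35, -0.33 for Slc25a37, 0.46 for Slc31a1, 0.48 for Slc31a2 and 0.35 for Slc4a4, and Shh minus hindbrain 0.0016 for Slc4a1ap. With the microglia covariate, Wnt minus Shh was 0.0050 for Slc11a1, Wnt minus hindbrain 0.62 for Slc11a1, 0.13 for Slc20a1, 0.84 for Slc46a1 and 1.30 for Slc9a9, and Shh minus hindbrain 0.61 for Slc11a1, -0.13 for Slc12a2, 0.011 for Slc25a11, -0.024 for Slc25a23, 0.038 for Slc37a2, 0.22 for Slc48a1, 0.21 for Slc8b1 and 0.27 for Slc9a9. Slc4a1ap in Wnt minus hindbrain was -0.021 under quantile normalization and under the same median, Slc12a2 in Shh minus hindbrain -0.012 under the same median, and Slc48a1 0.027 under quantile normalization. Without hindbrain replicates 1 and 8, Shh minus hindbrain was 0.022 for Slc48a1 and 0.0093 for Slc4a1ap. With 1 array left out at a time, Shh minus hindbrain lay between -0.11 and 0.022 for Slc48a1, -0.031 and 0.011 for Slc4a1ap, and -0.090 and 0.025 for Slc8b1.

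On these arrays a value within the range of the external control probe sets, 95% of which lay below 5.24, was taken to bound a level. This touches Slc9a2 in Wnt arrays (lowest 5.04) and Slc27a6, described below, in Shh arrays (lowest 4.79).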

Other observations

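Of the 142 genes of the same families below the hindbrain threshold, 16 had a mean of at least 8 in one of the tumours. They are described without a test, since that level chose them. Slc43a3, a purine base carrier, ran from 10.93 to 12.64 with a median of 11.89 in Wnt arrays, from 9.51 to 10.66 with a median of 10.30 in Shh arrays and from 7.28 to 7.90 with a median of 7.68 in hindbrain arrays. Its relative Slc43a1, a carrier of large neutral amino acids, averaged 10.04 ± 0.67 in Wnt, 6.90 ± 0.38 in Shh and 6.18 ± 0.21 in hindbrain arrays. Slc27a6, a fatty acid transport protein, was at 10.23 ± 0.60 in Wnt, 5.32 ± 0.36 in Shh and 5.78 ± 0.20 in hindbrain arrays, and Slc4a11 at 9.02 ± 0.82, 5.99 ± 0.08 and 5.97 ± 0.11 in the same order. Slc25a18, a glutamate carrier known from astrocytes, was high in Shh arrays, at 5.89 ± 0.37 in Wnt, 9.38 ± 0.87 in Shh and 7.34 ± 0.61 in hindbrain arrays.

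Wnt arrays were uneven for 2 of these genes. Slc45a2, a carrier of pigment granules, was at 10.84, 10.85 and 11.51 in Wnt replicates 4, 5 and 6 and between 5.70 and 7.60 in the other 5. Slc24a3, a sodium-calcium exchanger, was at 6.96, 7.68 and 7.49 in the same replicates 4, 5 and 6 and between 9.97 and 11.23 in the other 5. In hindbrain arrays Slc45a2 averaged 5.81 ± 0.16 and Slc24a3 averaged 7.55 ± 0.09. The rest were Slc9a7, Slc35f1, Slc35g2, Slc41a2, Slc35a1 and Slc25a51, at 8 or more in Wnt arrays, and Slc25a15, Slc25a27 and Slc35b3, at 8 or more in Shh arrays.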
